A study of Mus musculus with 6 samples.

Results

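The genes described here are 8 candidate targets of the microRNA miR-144, taken by name: Notch1, Adam10, Ezh2, Zeb1, Zeb2, Plag1, Rock1 and Abca1. Every probe set whose platform annotation named 1 gene, equal to one of these symbols, was used, which gave 26 of 45037 probe sets and 8 of 18193 named genes. The cells were bone marrow erythroblasts, sorted as Ter119 and CD71 double-positive cells of large size, from 3 wild-type (WT) mice and 3 mice with the miR-144/451 knockout (KO). Each mouse gave 1 Affymetrix Mouse Genome 430 2.0 array, and arrays are named by the numbers in their titles, 497, 504 and 550 in WT and 493, 548 and 551 in KO. The series' design speaks of 3 mice per genotype, but 1 label gives the same numbers as a microRNA construct, so reading them as mouse numbers is not certain. Strain, age, sex and litter were not used here. The knockout lacks miR-144 and miR-451 together, so effects of the loss of one and of the other cannot be told apart. The microRNAs themselves were not analysed here, and the genotypes rest on the labels.

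A microRNA guides an Argonaute protein to messenger RNAs, mostly through pairing of its seed, the bases near its 5′ end, with sites in the 3′ untranslated region. Such pairing lowers the stability or the translation of the messenger RNA, and an array sees only the first of these. miR-144 and miR-451 are made from one locus that the erythroid factor GATA1 activates, and both are abundant in maturing red cells. The 8 genes act at different places: Notch1 is a receptor and Adam10 the protease that opens it at the cell surface, Ezh2, Zeb1, Zeb2 and Plag1 act on chromatin and transcription, Rock1 is a kinase of the actin cytoskeleton, and Abca1 exports cholesterol.

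The microRNA sequences are shown because pairing runs mostly through the seed. The 8 genes were taken by name, and no search for seed sites was made. They are from RefSeq (mouse GRCm38.p6). The miR-144 hairpin lies at chr11:78073005-78073070 on the plus strand, and in its line the capitals mark the mature 3p strand. In the other lines the capitals mark the seed, bases 2 to 8.
Mir144 hairpin: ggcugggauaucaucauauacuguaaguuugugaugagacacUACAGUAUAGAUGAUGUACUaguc
mmu-miR-144-3p: uACAGUAUagaugauguacu
mmu-miR-101a-3p: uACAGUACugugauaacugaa
mmu-miR-144-5p: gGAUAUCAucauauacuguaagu
mmu-miR-451a: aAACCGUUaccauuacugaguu
A transcript pairs with the whole miR-144-3p seed through the letters ATACTGT. Of 1679 mature mouse microRNA names in that table, 1 had this seed, miR-144-3p itself, and 2 shared its bases 2 to 7, the other being miR-101a-3p. Counted from the 5′ end, the first difference between these is U8C, with the base of miR-144-3p first. miR-101 is a known repressor of Ezh2. The untranslated regions of the 8 genes were not analysed here, so the sites themselves are not shown. None of the 8 genes lies on chromosome 11, which carries the locus.

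Median log2 intensities were lower on the KO arrays, at 5.62 to 5.68, than on the WT arrays, at 5.73 to 5.78, and lower quartiles were 4.30 to 4.34 and 4.35 to 4.40. Differences are given as log2 KO minus WT, and a probe set was called when limma's p, adjusted by Benjamini-Hochberg over all 45037 probe sets, was under 0.05. This called 160 probe sets, 0.355%, with 83 higher and 77 lower in KO, and the median difference of all probe sets was -0.04. Of 9 measured erythroid markers, 8 were bright on every array. The ninth, Hba-a1, was read through a probe set under the lower quartile on all arrays, at 1.24 to 3.12, too dim to compare. Probe sets whose annotation named several genes were not used, so this value does not show that Hba-a1 was absent from these cells. Hbb-b1 was not analysed here.

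Markers of other blood cells were present and most lay lower in KO. The mean log2 intensity of 11 macrophage markers ran from 8.56 to 9.11 in WT mice and from 8.42 to 8.68 in KO mice. It was 8.73 to 9.34 and 8.24 to 8.59 for 9 B lineage markers, and 6.32 to 7.20 and 5.70 to 6.21 for 8 T and NK markers. The 10 neutrophil markers were at 11.54 to 11.78 and 11.16 to 11.43, and the 8 early progenitor markers at 6.89 to 7.22 and 6.53 to 6.63. The 6 megakaryocyte markers overlapped, at 9.54 to 9.61 and 9.50 to 9.73, and 9 erythroid markers were at 11.20 to 11.26 and 10.96 to 11.12. The erythroid mean includes the dim probe set of Hba-a1, which differed by -0.77 ± 0.44 (SE), while the median difference of the 9 genes was -0.11. No marker was listed at 0, and the defining genes Cd68, Cd79a, Cd3e, Elane and Cd34 each lay above the lower quartile on all 6 arrays. In the T and NK list, Gzmb and Il2rb did so on 2 arrays each and Cd3g on 5. The 3′ minus 5′ signal of the beta-actin control ran from 1.82 to 1.86 in KO mice and from 1.65 to 1.67 in WT mice, while that of the Gapdh control was at most 1.09 in WT and 1.05 in KO. Fewer cells of a type and less RNA per cell cannot be told apart in such bulk samples. The part of these shifts in the differences below was not tested.

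**Figure D1:**
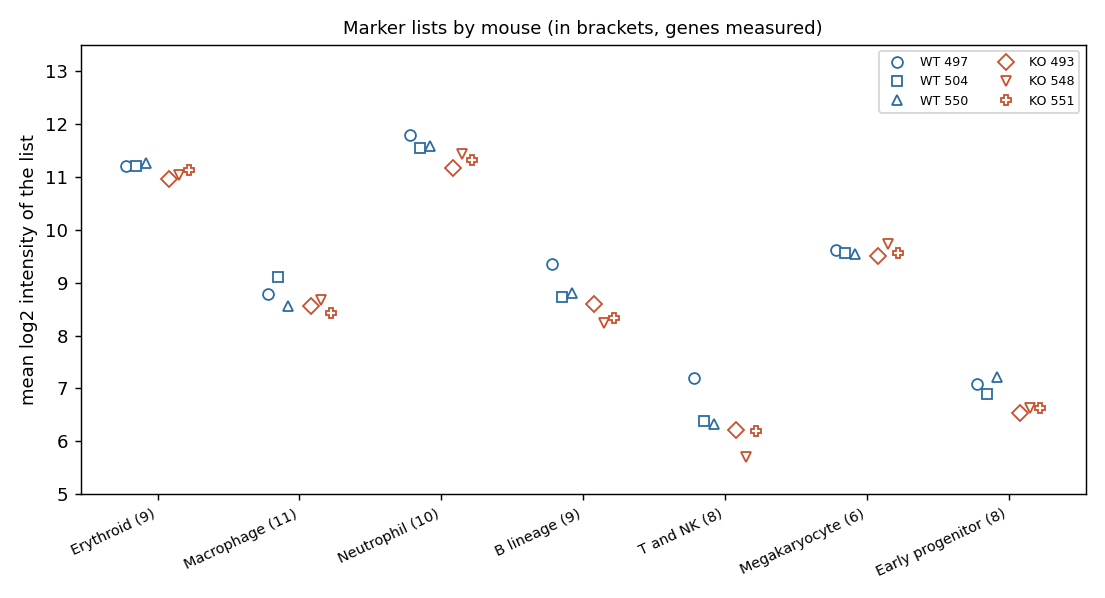
Mean log2 intensity (vertical axis) of each marker list in each of the 6 mice, WT in blue and KO in red, with 1 symbol per mouse. The KO mice lie below the WT mice for the B lineage, T and NK, neutrophil, early progenitor and erythroid lists, while the macrophage and megakaryocyte lists overlap. The erythroid list includes the dim probe set of Hba-a1.

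No candidate target was called in the knockout, in either direction. Of the 26 probe sets, limma called 0 (background 0.355%). An unadjusted p under 0.05 was reached by 1 that was higher in KO, of Zeb1 (background 7.61%), and by 6 that were lower (background 12.2%): 2 of Rock1 and 1 each of Notch1, Zeb2, Adam10 and Abca1. With each gene read through its probe set of highest mean intensity, 1 of 8 genes was higher at that level, Zeb1 (background 8.34%), and 1 lower, Abca1 (background 12.7%). The 3 KO values lay below the 3 WT values for 10 probe sets (background 15.3%) and above them for 2, both of Zeb1 (background 10.7%). Probe sets of 1 gene are not independent, and whether they measure the same transcript forms was not tested.

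The direction was mostly downward, as was that of the array medians. Of the 26 probe sets 21 were lower in KO (56.4% of all probe sets), and their median difference was -0.15, beside -0.04 for all probe sets. Among the 21 member probe sets whose mean lay above the median of all probe sets, 19 were lower, 90.5%, against 54.8% of all probe sets at such levels. Of these 21, Zeb2 and Rock1 gave 5 each and Adam10 gave 4, so this share counts a few genes repeatedly. At gene level 6 of 8 were lower (55.7% of all genes), with a median of -0.09 beside -0.04 for all genes. Under renewed quantile normalization the median of all probe sets was 0.016, and 25 of the 26 member probe sets kept their sign. No test was made of the genes as a list. For 24 of 26 probe sets the upper end of the 95% interval stayed under a 1.5-fold rise. The other 2, of Zeb1 and Abca1, lay under the lower quartile on all 6 arrays.

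**Figure D2:**
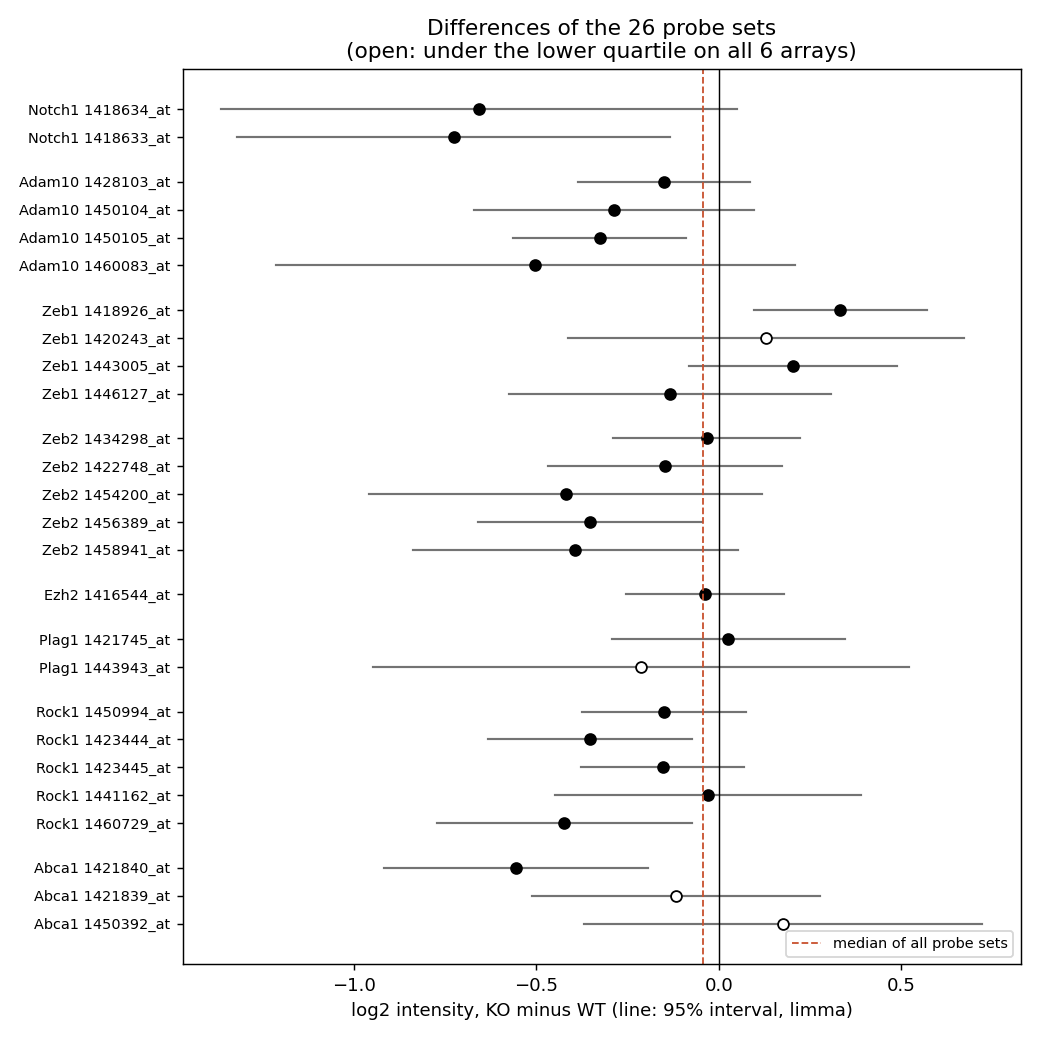
Difference of each of the 26 probe sets (horizontal axis, log2 KO minus WT) with limma's 95% interval as a line. Open points lay under the lower quartile on all 6 arrays, and the dashed line marks the median of all probe sets, -0.04. Most points lie left of 0, and the brightest probe set of Zeb1 lies right of it, at 0.33.

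Notch1, the receptor whose cleaved intracellular part acts as a transcriptional activator, had the lowest differences of the 8 genes. Its brighter probe set, 1418634_at, was at 9.37, 8.18 and 9.08 in WT 497, 504 and 550 and at 8.23, 8.38 and 8.05 in KO 493, 548 and 551. The groups overlap there, because WT 504 lay among the KO mice. The difference was -0.66 ± 0.30 (SE, n = 3 per group; limma adjusted p = 0.281). The second probe set, 1418633_at, carries the same source sequence in the platform annotation and is no separate support. It was at 8.86, 7.91 and 8.54 in WT and 7.86, 7.80 and 7.47 in KO, so that every KO value was below every WT value, if narrowly. Its difference was -0.73 ± 0.25 (limma adjusted p = 0.191). WT 504 was again the lowest WT mouse, and the WT SDs of 0.62 and 0.48 exceeded the KO SDs of 0.17 and 0.21. For 1418634_at the difference was -1.005 without WT 504 and -0.41 without WT 497. The early progenitor and the T and NK marker lists, of cells that also express Notch1, were lower in KO as given above.

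Of the rest of the Notch pathway, 27 of 29 listed genes were measured and limma called 0 (background 0.385% of genes). An unadjusted p under 0.05 was reached by 2, both lower (background 12.7%), and the median was -0.04, the same to 2 decimals as that of all genes. These were Hes1 and Hey2, repressors that Notch activates. Hes1 had means of 5.30 ± 0.03 in WT and 5.01 ± 0.12 in KO (SD), a difference of -0.28 ± 0.11 (SE, limma adjusted p = 0.212) that was -0.18 under renewed quantile normalization. Hey2 was at -0.56 ± 0.14 (limma adjusted p = 0.128), with means of 4.33 in WT and 3.76 in KO and a value above the lower quartile on 1 of 6 arrays. With the pseudocount of 16 it was -0.29. Of other Notch targets on the list, Hey1 was at 0.11 ± 0.13, Hes5 at 0.05 ± 0.11, Nrarp at -0.003 ± 0.12 and Dtx1 at -0.21 ± 0.25. The receptor Notch2 was at -0.25 ± 0.14, the DNA-binding partner Rbpj at -0.20 ± 0.19 and the gamma-secretase subunit Ncstn at 0.00 ± 0.10.

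Adam10, the sheddase that makes the first activating cut in Notch receptors, was lower in KO at all 4 of its probe sets, none of them called. The brightest, 1428103_at, was at 11.83, 11.97 and 11.87 in WT and 11.79, 11.74 and 11.69 in KO. Every KO mouse lay just below the WT mice, and the difference was -0.15 ± 0.10 (SE, limma adjusted p = 0.442). At 1450105_at the values were 10.81, 10.95 and 10.89 in WT and 10.53, 10.63 and 10.51 in KO, with a clear gap between the groups. The difference there was -0.33 ± 0.10 (limma adjusted p = 0.163), and limma with a robust, intensity-dependent prior called it (adjusted p = 0.0432, where 1.83% of all probe sets were called lower). The adjusted p of this probe set ranged from 0.0432 to 0.316 over the alternatives. The remaining probe sets overlapped between the groups, at -0.29 ± 0.16 and -0.50 ± 0.30. The first of these, 1450104_at, has the same source sequence as 1450105_at, and its difference was -0.17 without KO 493. The second of these, 1460083_at, had a wide KO spread, from 7.59 in KO 548 to 8.83 in KO 493, and its difference was -0.215 without KO 548 and -0.835 without KO 493. The mean over the 4 probe sets of Adam10 was -0.32 (limma adjusted p = 0.142).

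The list around Adam10 held other ADAM genes, the TspanC8 tetraspanins, which carry ADAM10 to the cell surface, the Timp inhibitors, and Rhbdf1 and Rhbdf2, which encode the iRhoms. Limma called 0 of its 17 measured genes (background 0.385%). There were 3 with an unadjusted p under 0.05, 1 higher (background 8.34%) and 2 lower (background 12.7%), and the list median was -0.19. Tspan15, a TspanC8 member, was at 7.75, 8.04 and 7.82 in WT and 8.60, 8.54 and 8.39 in KO. All KO mice were above all WT mice, by 0.64 ± 0.12 (SE, limma adjusted p = 0.0834). Tspan15 was called with that same prior (adjusted p = 0.0372), with the filter on dim probe sets (0.0354) and with a pseudocount (0.0353), while the highest adjusted p over its alternatives was 0.217. These settings called 1.71%, 2.77% and 1.25% of their probe sets higher. Tspan33, the TspanC8 member known from red cell precursors, had means of 12.73 ± 0.06 in WT and 12.66 ± 0.02 in KO (SD), a difference of -0.07 ± 0.10 (SE). The related sheddase Adam17 was at 0.13 ± 0.10, and Adam15, another ADAM gene, at -0.61 ± 0.21 (limma adjusted p = 0.194). That value is of an _x_at probe set, whose probes can match several transcripts; it was -0.20 as the mean of the gene's probe sets and -0.32 without _x_at and _s_at probe sets. In Adam15, as in Notch1, WT 504 was the lowest WT mouse, at 7.53 beside 8.25 and 8.30.

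Zeb1 was the one member whose bright probe sets lay mostly higher in KO. Zeb1 and Zeb2 are zinc finger repressors of epithelial genes that also act in blood cell development. The brightest Zeb1 probe set, 1418926_at, was at 11.14, 11.18 and 11.15 in WT and at 11.57, 11.51 and 11.39 in KO. The WT mice were close together and all KO mice stood above them. The difference was 0.33 ± 0.10 (SE, 95% interval 0.10 to 0.57), which limma did not call (adjusted p = 0.158). Limma with a robust, intensity-dependent prior called it (adjusted p = 0.0253, where 1.71% of all probe sets were called higher). Over the alternatives for this probe set its adjusted p ranged from 0.0253 to 0.307. Without 1 mouse the difference was 0.29 to 0.38. The mean over the 4 Zeb1 probe sets was 0.13 (limma adjusted p = 0.412).

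The other Zeb1 probe sets were dimmer and gave smaller differences. At 1443005_at the WT values were 7.28, 7.23 and 7.13 and the KO values 7.34, 7.60 and 7.31, again with all KO mice above all WT mice. This was a difference of 0.20 ± 0.12 (SE, limma adjusted p = 0.391), with 0.11 left when KO 548 was removed. At 1446127_at the groups overlapped (-0.13 ± 0.19), and 1420243_at was under the lower quartile on all arrays (0.13 ± 0.23). The 4 probe sets of Zeb1 thus disagree on size, and 1 of them on direction.

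Zeb2 was lower in KO at all 5 probe sets, by amounts that differed with the probe set. The brightest, 1434298_at, was at 10.11, 10.25 and 10.06 in WT and 10.10, 10.20 and 10.02 in KO. These groups overlap almost fully, with a difference of -0.03 ± 0.11 (SE, limma adjusted p = 0.894), and without WT 504 or KO 551 the sign turned, to 0.02 and 0.01. At 1456389_at the WT values were 8.96, 9.12 and 9.02 and the KO values 8.54, 8.60 and 8.90. All KO mice lay below the WT mice, KO 551 close to them, and the difference was -0.35 ± 0.13 (limma adjusted p = 0.209). The other 3 probe sets were at -0.15 to -0.42, each with overlapping groups, and the lowest, 1454200_at, was at -0.235 without KO 548 and -0.25 without WT 504. The mean over the 5 probe sets was -0.27 (adjusted p = 0.24). Macrophages also express Zeb2, and their markers are given above.

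Of 13 partners and known targets of the ZEB factors, limma called 0 (background 0.385%), and 4 were lower with an unadjusted p under 0.05 (background 12.7%). The list median was -0.22. Cdh1, the epithelial cadherin that ZEB factors repress, was at 6.70, 6.04 and 6.39 in WT and 5.55, 6.03 and 5.13 in KO. WT 504 and KO 548 were nearly equal, and the difference was -0.81 ± 0.26 (SE, limma adjusted p = 0.177). Elsewhere on the list Epcam was at 0.03 ± 0.14, Crb3 at -0.22 ± 0.11, Vim at -0.39 ± 0.15 and Twist1 at -0.35 ± 0.13. In all, 4 of the 13 genes were higher in KO and 9 lower. Ctbp2, a corepressor that binds ZEB proteins, was at -0.38 ± 0.13 (limma adjusted p = 0.185), and at -0.20 as the mean of its probe sets (limma adjusted p = 0.348). The related corepressor Ctbp1 is named for a single array, after its values were seen: KO 493 was at 14.23, beside 11.80 to 11.99 in the other 5 mice.

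**Figure D3:**
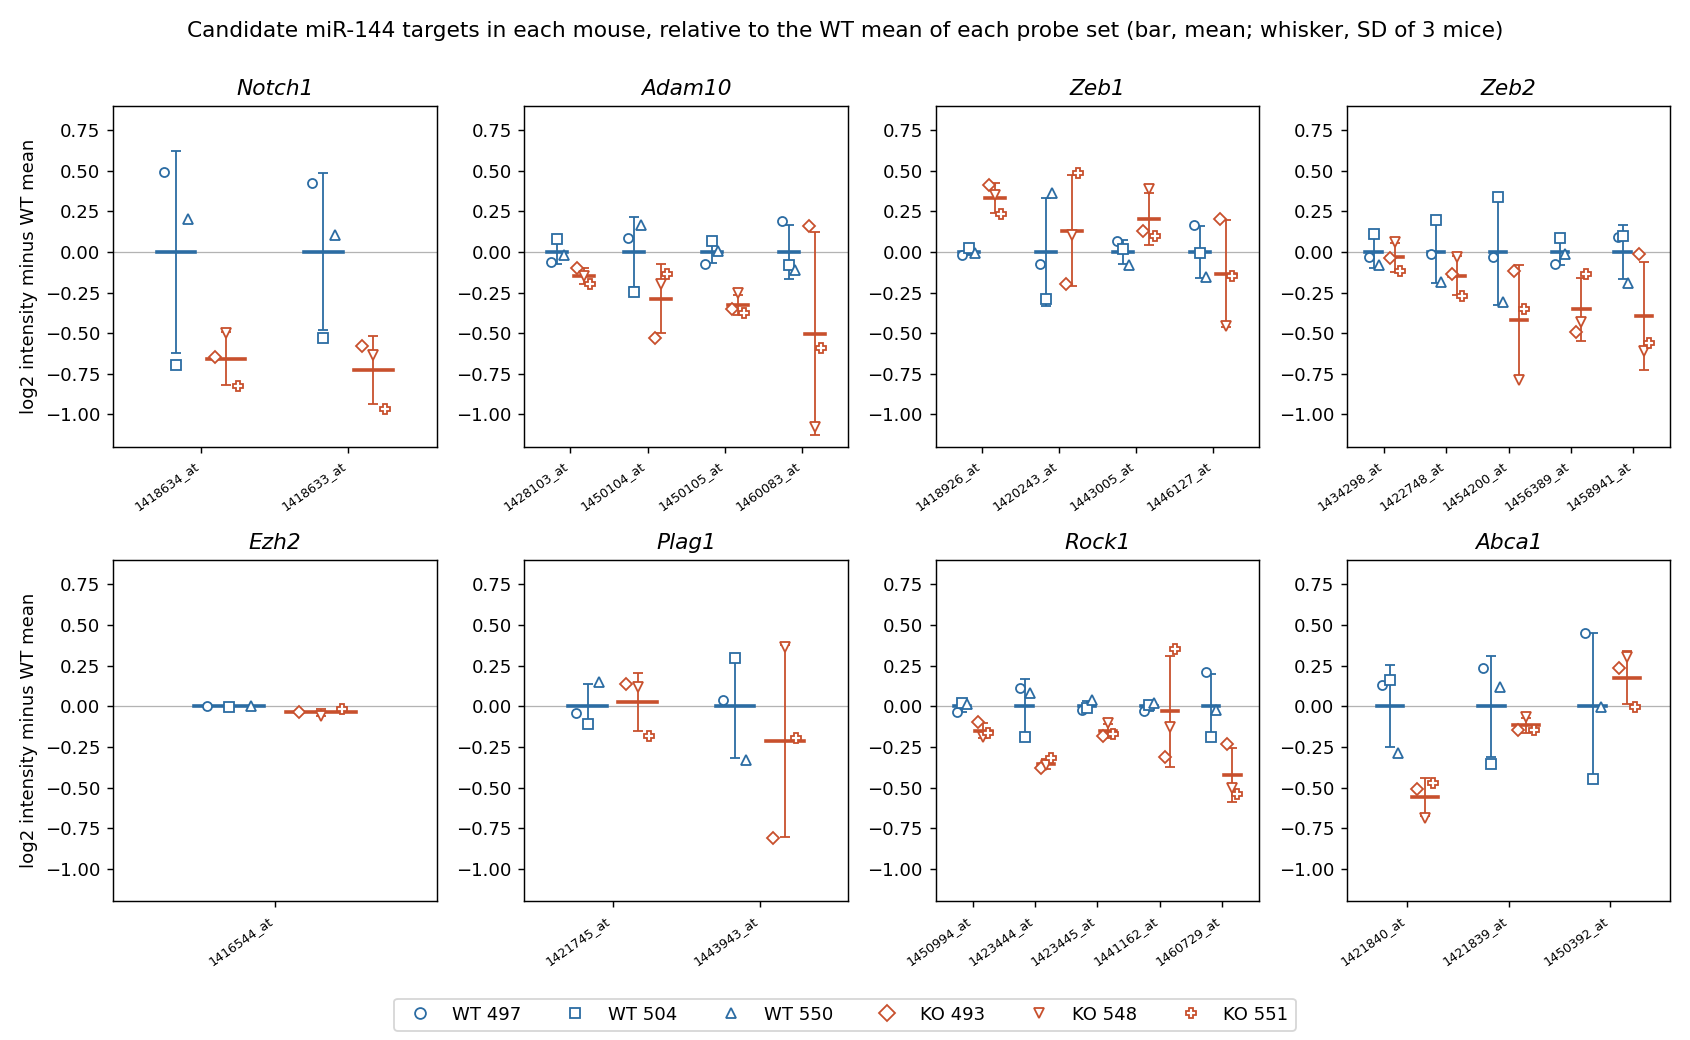
Log2 intensity of each mouse relative to the WT mean of the same probe set (vertical axis), in 1 panel per gene with its probe sets along the horizontal axis, WT in blue and KO in red. Bars are means and whiskers SDs over 3 mice. WT 504 lies among the KO mice for Notch1 1418634_at and just above them for 1418633_at. All KO mice lie above WT for 2 of 4 Zeb1 probe sets (background 10.7%). All lie below WT for 4 of 5 Rock1 probe sets (background 15.3%), and these 4 carry the same source sequence.

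Ezh2, the methyltransferase of Polycomb repressive complex 2 that places the repressive mark on histone H3 lysine 27, was nearly level. Its probe set 1416544_at was at 11.93, 11.92 and 11.93 in WT and 11.89, 11.87 and 11.91 in KO. The KO values lay below the WT values by the smallest of margins. The difference was -0.04 ± 0.09 (SE, limma adjusted p = 0.859), with a 95% interval of -0.25 to 0.18 that leaves room for a rise of at most 1.13-fold. The moderated SE was larger than the SDs of 0.02 in KO and 0.01 in WT, since limma pulls each variance toward that of the other probe sets.

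The list around Ezh2 held subunits of the complex, Ezh1 and the demethylases of the same mark, Kdm6a and Kdm6b. Limma called 0 of 12 (background 0.385%), and 1 was higher (background 8.34%) and 2 lower (background 12.7%) with an unadjusted p under 0.05. The median was -0.05. The core subunits Eed and Suz12 were at 0.12 ± 0.11 and -0.08 ± 0.09 (SE), and the alternative methyltransferase Ezh1 at -0.14 ± 0.12. Jarid2, which helps recruit the complex, had means of 10.88 ± 0.11 in WT and 11.17 ± 0.05 in KO (SD), higher in all KO mice than in any WT mouse (0.29 ± 0.11, SE, limma adjusted p = 0.207). The accessory subunits Phf1 and Phf19 were at -0.48 ± 0.17 (limma adjusted p = 0.199) and -0.33 ± 0.13 (0.22), and Kdm6a at -0.30 ± 0.20.

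Plag1, a zinc finger activator of growth genes such as Igf2, was too dim to compare. The brighter probe set, 1421745_at, was at 4.29, 4.22 and 4.48 in WT and 4.47, 4.45 and 4.15 in KO, above the lower quartile on 3 of 6 arrays. The groups overlap and the difference was 0.03 ± 0.13 (SE, limma adjusted p = 0.935). The other probe set lay under the lower quartile on every array (-0.21 ± 0.31). Of 6 related genes, limma called 0 (background 0.385%), and 1 was lower with an unadjusted p under 0.05 (background 12.7%). This was Plagl2, a paralogue, with means of 9.94 ± 0.11 in WT and 9.60 ± 0.21 in KO (SD; difference -0.33 ± 0.14, SE, limma adjusted p = 0.249). Plagl1, the other paralogue, was at -0.24 ± 0.16, with -0.12 without KO 493, -0.38 without KO 551, -0.13 under renewed quantile normalization, -0.15 under cyclic loess and -0.45 as the mean of its probe sets. Igf2 was at -0.08 ± 0.18.

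Rock1, a kinase that RhoA activates to raise actomyosin contraction, was lower in KO at all 5 probe sets, although 1441162_at, at -0.03, turned to 0.01 under renewed quantile normalization. In 4 of the 5 every KO mouse lay below every WT mouse (background 15.3% of all probe sets). These 4 carry the same source sequence in the platform annotation. The brightest, 1450994_at, was at 11.75, 11.81 and 11.80 in WT and 11.69, 11.60 and 11.62 in KO. The gap was narrow, with a difference of -0.15 ± 0.09 (SE, limma adjusted p = 0.421). At 1423444_at the values were 10.58, 10.28 and 10.55 in WT and 10.09, 10.11 and 10.15 in KO, the KO mice close together and WT 504 the nearest to them. The difference was -0.35 ± 0.12 (limma adjusted p = 0.183).

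At 1460729_at Rock1 was at 10.19, 9.79 and 9.96 in WT and 9.75, 9.48 and 9.44 in KO, where WT 504 and KO 493 nearly met. The difference was -0.42 ± 0.15 (SE, limma adjusted p = 0.194), and at 1423445_at it was -0.15 ± 0.09. The fifth probe set, 1441162_at, has another source sequence. It spread from 8.48 to 9.14 in KO around WT values of 8.76 to 8.81. So the probe sets of one source gave differences from -0.15 to -0.42.

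The ROCK pathway had 18 of 19 listed genes measured, and limma called 0 (background 0.385%). An unadjusted p under 0.05 was reached by 1 higher (background 8.34%) and 1 lower gene (background 12.7%), and the median was -0.03. Rhob, a RhoA relative, was at 8.04, 7.85 and 7.67 in WT and 6.89, 7.36 and 7.16 in KO. Every KO mouse lay below every WT mouse, with a difference of -0.72 ± 0.16 (SE, limma adjusted p = 0.106). Myl9, a regulatory myosin light chain, was at 0.44 ± 0.14 (limma adjusted p = 0.168). Rhoa itself was at -0.02 ± 0.09, the myosin phosphatase subunit Ppp1r12a at 0.07 ± 0.09 and cofilin, Cfl1, at -0.01 ± 0.09.

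Abca1, which moves cholesterol and phospholipid from cells to apolipoproteins, had the smallest p of the 8 genes, in the downward direction. Its readable probe set, 1421840_at, was at 8.09, 8.12 and 7.67 in WT and 7.45, 7.27 and 7.49 in KO. All KO mice lay below all WT mice, with WT 550 the nearest. The difference was -0.56 ± 0.15 (SE, 95% interval -0.92 to -0.19), which limma did not call (adjusted p = 0.14). Over the alternatives for this probe set its adjusted p ranged from 0.0762 to 0.296. The other 2 probe sets lay under the lower quartile on all arrays, at -0.12 ± 0.17 and 0.18 ± 0.23. The mean over the 3 was -0.17 (limma adjusted p = 0.524).

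Cholesterol efflux genes around Abca1 numbered 12 measured of 14 listed, and limma called 0 (background 0.385%). There were 2 lower with an unadjusted p under 0.05 (background 12.7%), and the median was -0.06. Abcg1, a transporter that loads cholesterol onto lipoproteins, was at 9.74, 9.28 and 8.94 in WT and 8.83, 8.65 and 8.51 in KO. Every KO mouse lay below the WT mice, and the difference was -0.66 ± 0.21 (SE, limma adjusted p = 0.174). Nceh1, which frees cholesterol from stored esters, was at -0.51 ± 0.15 (limma adjusted p = 0.151). Nr1h3, which encodes the sterol receptor LXR alpha, was at 0.21 ± 0.14, and the ligase gene Mylip at 0.10 ± 0.12. Macrophages also express Abca1 and Abcg1. Of the 11 macrophage markers 10 were lower in KO, beside 55.7% of all genes. An unadjusted p under 0.05 was reached by 3 of them (background 12.7%): Csf1r at -0.63 ± 0.18, Adgre1 at -0.54 ± 0.20 and Cd68 at -0.49 ± 0.17. C1qb and Vcam1, also macrophage markers, were at -0.19 ± 0.14 and -0.06 ± 0.14. Their part in the lower Abca1 signal was not tested.

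**Figure D4:**
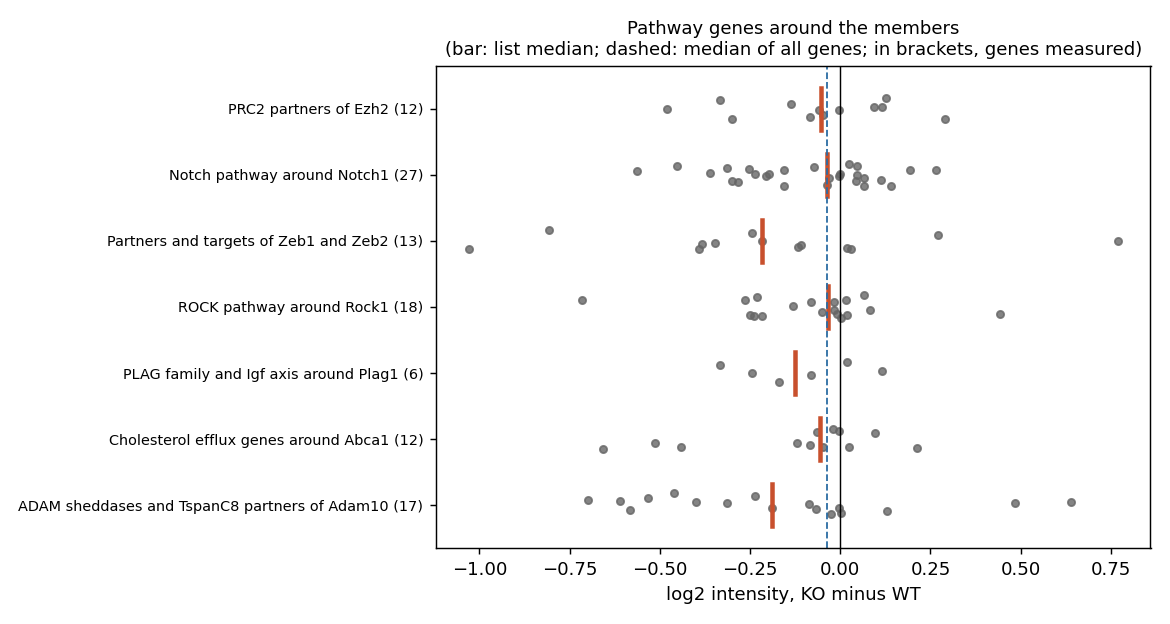
Difference (horizontal axis, log2 KO minus WT) of each measured pathway gene, in 1 row per list, with the list median as a bar and the median of all genes as a dashed line. Medians run from -0.22 for the ZEB list to -0.03 for the ROCK list, beside -0.04 for all genes, and the point farthest right is Ctbp1.

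Over all 7 pathway lists, 105 genes were measured and limma called 0 (background 0.385%). An unadjusted p under 0.05 was reached by 3 higher genes (background 8.34%) and 14 lower genes (background 12.7%), and the median was -0.08. Maml3, Rock2, Nr1h2 and Soat1 were not analysed here. The genes whose values over the 6 mice were most like those of Abca1, by Pearson correlation among all other named genes, were Fancl (0.995), Casp8 (0.995) and Zfp606 (0.992). With 6 arrays and 18193 genes such values describe a shared order of mice: for all 3, as for Abca1, the values were highest in WT 497 and WT 504 and lowest in KO 548.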

How the data were processed

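The deposited values were probe-set intensities on a linear scale that the authors made with RMA, per the submitters' processing notes. Software, version and background step were not given in the sources used here. RMA makes the arrays' distributions more alike, which would hide part of a change common to most transcripts. The deposited distributions were not fully alike, since the medians of KO and WT arrays differed as given above. All values (100%) were powers of 2 whose exponents had 2 decimals, and log2 was taken without further normalization. After 64 control probe sets were removed, 45037 were tested with limma 3.58.1 in R 4.3.3 (lmFit, eBayes, no covariate), and the fit was tested on simulated data. Gene names came from GEO's platform annotation. A gene was read through its probe set of highest mean. SEs and 95% intervals are limma's, SDs are over 3 mice, and the number of arrays limits precision. Named pathway genes are, per list, called genes or else the 2 with the smallest p; further pathway and marker genes were named for their role, after values were seen. Members, lists and tests were chosen with earlier results of these data known. Alternatives were 2 renormalizations, a robust, intensity-dependent prior, a filter on dim probe sets, a pseudocount of 16, other summaries of a gene's probe sets, and leaving out each mouse.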

Additional observations from a re-analysis of the deposited data

How the results depend on the processing

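The count of all called probe sets, 160, was 1592 with the robust, intensity-dependent prior, 1113 with the filter on dim probe sets and 1016 with the pseudocount of 16, and 8 to 23 without 1 mouse. Renewed quantile normalization called 157 higher and 77 lower, and cyclic loess 109 and 73. The count of called members, 0, was 2 with that prior (Zeb1 1418926_at and Adam10 1450105_at) and 0 under each other alternative, including each fit without 1 mouse. The dim filter kept 21 of the 26. The count of called pathway genes, 0, was 1 with that prior, 1 with the filter and 1 with the pseudocount, Tspan15 each time, and 0 in each fit without 1 mouse. Apart from the fits without 1 mouse, the sign turned for Rock1 1441162_at under renewed quantile normalization (0.008) and Plag1 as the mean of its probe sets (-0.093). Without 1 mouse, sign changes lay within ranges of -0.047 to 0.312 for Zeb1 1420243_at, -0.302 to 0.028 for Zeb1 1446127_at, -0.08 to 0.022 for Zeb2 1434298_at, -0.22 to 0.11 for Rock1 1441162_at, -0.03 to 0.13 and -0.503 to 0.087 for Plag1 1421745_at and 1443943_at, and -0.293 to 0.002 and -0.047 to 0.403 for Abca1 1421839_at and 1450392_at. The causes were not tested. Over scalings the median of all probe sets moved from -0.043 to 0.016 at most. No paired analysis was possible because the groups share no replicate number. Dim signal limits Plag1 and 3 further probe sets.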
